A study of Homo sapiens with 11 samples.

Results

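The mitochondrial respiratory chain is built from 5 protein complexes whose subunits are encoded partly in the nucleus and partly in mitochondrial DNA. The rows described here are the nuclear-encoded subunit genes, 90 of the 61464 rows of the deposited count table. A row was included where its Ensembl ID maps to a protein-coding symbol that starts with NDUFA, NDUFB, NDUFC, NDUFS or NDUFV (complex I, assembly factors with the NDUFAF prefix left out), is SDHA, SDHB, SDHC or SDHD (complex II), or starts with UQCR (complex III), COX4 to COX8 (complex IV) or ATP5 (complex V, the ATP synthase). This gave 40 genes for complex I, 4 for complex II, 9 for complex III, 17 for complex IV and 20 for complex V. The rule uses symbols and no measured value. NDUFA4 and NDUFA4L2 are counted with complex I by their symbols, although NDUFA4 is known as a subunit of complex IV.

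RNA was measured in HCT116, an established human colorectal carcinoma line that the labels describe as epithelial and as carrying a ras mutation, which all groups share. Treatment lasted 48 h, with DMSO, the solvent control (3 libraries), or with GTEA1 or GTEA7, a pair of triterpenoid extracts of the bracket fungus Ganoderma (4 libraries each). The title of the series names stemness and migration of colon cancer as the processes the extracts were meant to affect. No doses are given in the labels used here, and nothing in the labels says that replicates came from separate cultures, so p-values measure only the spread between these libraries, which may be technical.

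Complex I (NADH dehydrogenase) and complex II (succinate dehydrogenase) pass electrons to ubiquinone, complex III passes them on to cytochrome c, and complex IV (cytochrome c oxidase) passes them to oxygen. Complexes I, III and IV pump protons across the inner mitochondrial membrane, and the ATP synthase lets them flow back to make ATP. Complex II alone is encoded wholly in the nucleus. The known means by which cells keep subunits of both genomes in balance include joint transcriptional control, assembly factors and the degradation of unassembled subunits.

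Total counts per library were 13742326 to 19304211, and members held 0.435% to 0.534% of them. Of the 90 members, 82 had enough counts to be tested among 17963 genes. Levels are given as CPM (counts per 1e6 counted reads, scaled by TMM factors), a value after ± is the SD where it follows a CPM or percent and the SE where it follows a log2 fold change, and n is 3 for DMSO and 4 for each extract throughout. A gene is called where edgeR's quasi-likelihood F test gave a Benjamini-Hochberg adjusted p under 0.05 over all genes tested, and every adjusted p below comes from that test. Of the epithelial markers, EPCAM was at 233 CPM and KRT8 at 1160 CPM in DMSO. CDX2 was at 11.6 CPM, and VIL1, a microvillus gene of differentiated enterocytes, had 28 counts in all. The 7 epithelial markers summed to 2230 to 2380 CPM in DMSO, 2710 to 2840 CPM in GTEA1 and 2230 to 2320 CPM in GTEA7, with 3 called higher and 3 lower in GTEA1. KRT19 had the largest difference in CPM, at 451 in DMSO and 1030 in GTEA1. EPCAM and CDH1 were the other markers called higher, and KRT8, KRT18 and CDX2 were called lower. Markers of other cell types were low apart from the fibroblast list: the leukocyte marker CD3E had 0 counts and PTPRC 12. The endothelial CDH5 had 8 counts and PECAM1 67, and the muscle genes MYH7, ACTA1 and CKM had 1, 38 and 136. CKM, at a mean of 0.777 CPM, was called in neither extract against DMSO. It was called lower in GTEA7 than in GTEA1 (-0.97 ± 0.30, adjusted p = 0.0038). The 4 fibroblast markers summed to 52.5 to 55.6 CPM in DMSO, 41.3 to 46.6 CPM in GTEA1 and 35.6 to 45.7 CPM in GTEA7, nearly all of it COL1A1, while COL1A2 had 17 counts in all. COL1A1 was called lower in both extracts, VIM higher in GTEA1 and lower in GTEA7, and the part of all these markers in the results was not tested.

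In GTEA1 the respiratory chain genes did not move as a block. Of the 82 members tested, 22 rose and 26 fell, and 34 were not called. That is 58.5% called, against 71.8% of all genes tested (35.6% higher and 36.2% lower). The members' median log2 fold change was -0.01, against -0.008 for all genes tested, and their median absolute log2 fold change was 0.21, against 0.47. Only NDUFC2 passed the threshold with a change of 2-fold or more, where 21% of all genes did. The libraries of GTEA1 and DMSO did not overlap for 44 members (19 higher and 25 lower), against 68.7% of all genes tested. Among the 13190 genes tested that were at or above the 5th percentile of the members' mean CPM, 78.8% were called. The median absolute log2 fold change of these genes was 0.41, and 15.6% of them passed the threshold with a change of 2-fold or more. In bulk RNA, a change in the mix of cells and a change in RNA per cell cannot be told apart.

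The direction of many small changes rests on how libraries are scaled. TMM factors were 1.047 to 1.065 in DMSO, 0.9329 to 0.9502 in GTEA1 and 1.013 to 1.025 in GTEA7. Scaled by library size alone, GTEA1 against DMSO had a median of -0.167 over all genes tested and of -0.17 over the members, and the counts became 11 higher and 44 lower. By complex they became 8 higher and 19 lower (I), 1 and 1 (II), 0 and 6 (III), 1 and 5 (IV), and 1 and 13 (V). The members' median lay close to that of all genes under both scalings. Of the 48 members called, 36 kept their call under TMM, DESeq2 size factors and library size alike, and 33 kept it under every alternative run.

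**Figure D1:**
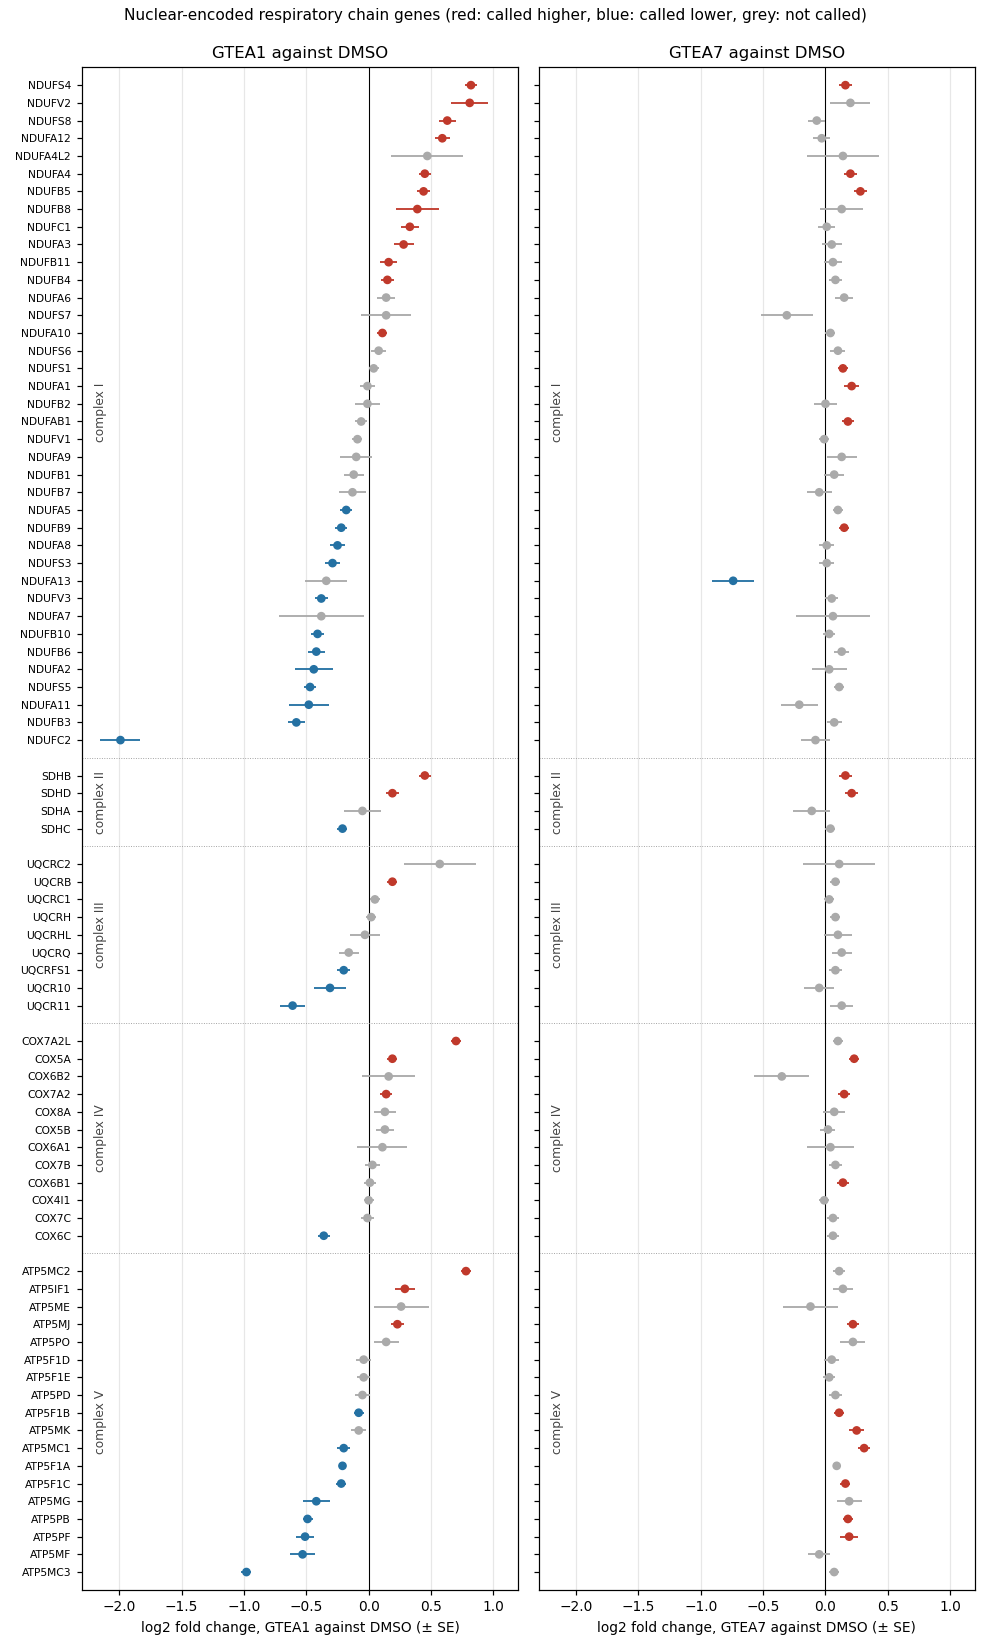
Log2 fold change against DMSO with its standard error (x axis) for 81 of the 82 tested members (y axis), grouped by complex, for GTEA1 on the left and GTEA7 on the right; red points were called higher, blue points lower and grey points were not called. In GTEA1 called members lie on both sides of 0, from NDUFC2 at -1.99 to NDUFS4 at 0.82, while in GTEA7 NDUFA13 is the single member called lower.

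Windows around the start sites of 5 members are printed because they show the motifs of factors known for nuclear respiratory genes, and because the first 3 belong to the ATP synthase, where members moved in opposite directions in GTEA1. Each runs 5′ to 3′ on the gene's strand, from 250 bases before to 50 bases after a start site, as RefSeq gives it on GRCh38.p14. Capitals mark matches on either strand to CGCATGCG (the nuclear respiratory factor 1 core), CCGGAAG (bound by ETS factors such as GABPA), AAGATGGCG (known for YY1) and CACGTG (the E-box). The windows are chr17:48892537-48892836 (+) for ATP5MC1, chr12:53676034-53676333 (-) for ATP5MC2, chr21:25735005-25735304 (-) for ATP5PF, chr5:53560389-53560688 (+) for NDUFS4 and chr1:17053983-17054282 (-) for SDHB.
ATP5MC1: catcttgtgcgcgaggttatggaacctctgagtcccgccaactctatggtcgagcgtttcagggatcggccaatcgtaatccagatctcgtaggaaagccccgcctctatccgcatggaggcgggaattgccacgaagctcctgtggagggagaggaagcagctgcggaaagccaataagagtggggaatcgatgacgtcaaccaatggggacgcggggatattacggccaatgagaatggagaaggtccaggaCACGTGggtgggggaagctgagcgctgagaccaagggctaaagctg
ATP5MC2: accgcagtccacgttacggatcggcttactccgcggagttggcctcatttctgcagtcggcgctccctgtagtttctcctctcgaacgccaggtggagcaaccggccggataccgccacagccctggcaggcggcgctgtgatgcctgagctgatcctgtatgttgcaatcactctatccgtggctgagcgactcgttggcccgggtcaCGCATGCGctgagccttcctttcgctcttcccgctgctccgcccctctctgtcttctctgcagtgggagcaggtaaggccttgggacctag
ATP5PF: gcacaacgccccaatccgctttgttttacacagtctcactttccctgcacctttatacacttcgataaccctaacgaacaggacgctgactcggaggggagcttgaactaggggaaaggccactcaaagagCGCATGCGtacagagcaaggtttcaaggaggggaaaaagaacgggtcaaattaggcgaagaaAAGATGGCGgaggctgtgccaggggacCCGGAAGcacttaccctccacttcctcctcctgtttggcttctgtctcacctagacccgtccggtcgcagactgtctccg
NDUFS4: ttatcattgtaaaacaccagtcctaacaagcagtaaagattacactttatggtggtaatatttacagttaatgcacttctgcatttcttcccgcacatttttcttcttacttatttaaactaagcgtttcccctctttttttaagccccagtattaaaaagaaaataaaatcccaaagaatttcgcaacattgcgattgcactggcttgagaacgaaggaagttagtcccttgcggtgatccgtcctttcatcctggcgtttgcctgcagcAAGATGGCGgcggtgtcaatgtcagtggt
SDHB: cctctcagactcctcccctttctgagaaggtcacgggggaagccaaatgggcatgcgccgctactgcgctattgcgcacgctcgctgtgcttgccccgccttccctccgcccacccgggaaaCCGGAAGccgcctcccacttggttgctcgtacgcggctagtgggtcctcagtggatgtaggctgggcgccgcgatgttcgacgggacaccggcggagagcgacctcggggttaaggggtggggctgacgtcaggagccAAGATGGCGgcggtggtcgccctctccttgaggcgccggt

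ATP5MC2 and ATP5PF have further start sites in the same table, and the window shown for each is the one that holds CGCATGCG. The E-box of ATP5MC1 and the AAGATGGCG of NDUFS4 and SDHB lie after the start site. Promoter entries matched 73 of the 90 members. Both strands were searched in every window of a gene, and a gene was counted where any window held the motif. CGCATGCG was found in 15.1% of the members with an entry, against 2.46% of all 27305 genes with an entry and 4.33% of those tested here. The wider form CGCNTGCG, which includes every CGCATGCG, was in 37% of members and 21% of tested genes. CCGGAAG was in 28.8% against 21.1%, AAGATGGCG in 12.3% against 4.35%, and CACGTG in 9.59% against 12.3%. TGATGNAA, which includes sites of the stress factor ATF4, was in 2.74% of members and 2.76% of tested genes.

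The calls in GTEA1 of members that hold a motif can be set beside the 35.6% higher and 36.2% lower of all genes tested. They can also be set beside all 82 members tested, of which 22 were called higher and 26 lower. Of the 11 members with CGCATGCG, 3 were called higher and 4 lower. Among the 9 with AAGATGGCG, 3 were higher (NDUFB8, NDUFS4 and SDHB) and 1 was lower (ATP5PF). Of the 21 with CCGGAAG, 2 were higher and 5 lower. CACGTG was held by 7 members, of which 4 were called lower (ATP5MC1, ATP5PB, NDUFA11 and UQCR11) and 0 higher. A match describes the letters of the window and is not a measured site.

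Complex I had rises and falls in near balance in GTEA1 under TMM: 13 of its 39 tested genes rose and 12 fell, with fold changes from -1.99 to 0.82 on the log2 scale. The matrix arm, which oxidises NADH and carries the iron-sulphur clusters, had 5 rises and 4 falls among 16 genes. The membrane arm, which pumps protons, had 7 rises and 8 falls among 20. Without NDUFA4 and NDUFA4L2 the complex had 12 of each among 37 tested.

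The core subunits of the matrix arm hold the redox centres. NDUFV1, which binds NADH and the flavin, was at 78.1, 80.2 and 84.6 CPM in DMSO and 71 to 81.2 CPM in GTEA1 and was not called (-0.09 ± 0.04, adjusted p = 0.07) except by library size alone, at -0.25, and without DMSO replicate 1 or GTEA1 replicate 1. NDUFS1, the largest iron-sulphur subunit, was not called either, at 0.04 ± 0.04, but was called lower at -0.12 by library size alone.

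NDUFS8 carries a pair of iron-sulphur clusters near the ubiquinone site. It was at 19.6, 24.2 and 26.3 CPM in DMSO and at 36.6, 35.8, 35.3 and 36.5 CPM in GTEA1, so the groups did not overlap and the DMSO libraries were the more spread. It rose by 1.55-fold (0.63 ± 0.07, adjusted p = 1.5e-11). NDUFV2, an iron-sulphur partner of NDUFV1, was at 6.62, 4.36 and 5.3 CPM in DMSO and at 6.66, 9.53, 10.7 and 10.8 CPM in GTEA1. GTEA1 replicate 1 lay just above the highest DMSO library, and the rise was 1.75-fold (0.81 ± 0.15, adjusted p = 3.0e-05). Of the exon bases of NDUFV2, 28.4% are shared with another gene of the annotation. NDUFS3 fell (-0.29 ± 0.06), and NDUFS7, with 325 counts over all libraries and 49.1% of its exon bases shared, was not called (0.14 ± 0.20).

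NDUFS4 (ENSG00000164258), an accessory subunit that holds the NADH-oxidising module in place, had the largest rise of any member. Its levels were 31.2, 32.8 and 31 CPM in DMSO, 52.7, 56.5, 58.6 and 55.9 CPM in GTEA1, and 34.6, 34.7, 35.7 and 36.6 CPM in GTEA7. Every GTEA1 library was above every other library. The rise in GTEA1 was 1.76-fold (0.82 ± 0.05, adjusted p = 1.2e-19). NDUFA12, another accessory subunit of the matrix arm, rose by 1.5-fold (0.59 ± 0.06) from 21.2 to 23.2 CPM in DMSO to 30.8 to 35.9 CPM in GTEA1.

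NDUFC2 (ENSG00000151366), a small subunit of the membrane arm, had the largest fall. It was at 7.09, 6.9 and 6.68 CPM in DMSO and at 2.14, 1.1, 2.03 and 1.67 CPM in GTEA1, while GTEA7 libraries were at 5.7 to 7.42 CPM. All GTEA1 libraries were below all others, on 100 counts in GTEA1 against 346 in DMSO, and the fold change was 0.252 (-1.99 ± 0.16, adjusted p = 5.8e-16). Of its exon bases, 18.1% are shared, mostly with the read-through gene NDUFC2-KCTD14. That read-through gene matches the rule too but had 0 counts in all libraries. Of its own exon bases, 100% are shared with other genes. How shared reads were counted is not stated, so this 0 does not show whether the read-through gene is transcribed.

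NDUFB3, a membrane arm subunit, was at 25.9, 26.7 and 27.1 CPM in DMSO and at 18.3, 19.5, 16.9 and 16.6 CPM in GTEA1. The groups were apart, and NDUFB3 fell by 0.58 ± 0.07 on the log2 scale (adjusted p = 2.1e-10), with 19.8% of its exon bases shared. Further falls in the membrane arm included NDUFS5 (-0.47), NDUFB6 (-0.42), NDUFB10 (-0.41) and NDUFB9 (-0.22). Rises there included NDUFB5 (0.44) and NDUFC1 (0.33), both called under every alternative run. The rises of NDUFA3 (0.28), NDUFB4 (0.15), NDUFB11 (0.16), NDUFA10 (0.11) and NDUFB8 (0.39) were lost by library size alone, where NDUFB4, NDUFB11 and NDUFA10 also changed sign. The calls of NDUFB8 and NDUFB11 were lost under 8 and 6 alternatives in all, both without DMSO replicate 1 or 3 and without GTEA1 replicate 4, NDUFB8 also without GTEA1 replicate 2 and NDUFB11 without GTEA1 replicate 1. NDUFB4 lost its call without DMSO replicate 1 too, and NDUFA10 without DMSO replicate 3. Leaving out GTEA1 replicate 1 ended the call of NDUFA11 (-0.48), and leaving out DMSO replicate 2 ended that of NDUFA2 (-0.44).

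Complex II had 2 rises and 1 fall among its 4 genes in GTEA1. SDHB, which carries the iron-sulphur clusters of the catalytic head, was at 60.1, 61.9 and 58.5 CPM in DMSO, at 88.6, 80.8, 82.3 and 78.7 CPM in GTEA1, and at 64.5, 70.2, 65.5 and 68.7 CPM in GTEA7. The 3 groups did not overlap, and the rise in GTEA1 was 1.37-fold (0.45 ± 0.05, adjusted p = 1.3e-12). The membrane anchors SDHC and SDHD went apart: SDHC fell by 0.21 ± 0.04 (adjusted p = 2.1e-05), and SDHD rose by 0.19 ± 0.05 (adjusted p = 4.2e-04), a call lost by library size alone. SDHA, the flavoprotein that oxidises succinate, had 620 counts in all, was at 3.63 ± 0.28 CPM in DMSO and 3.50 ± 0.47 CPM in GTEA1, and was not called (-0.05 ± 0.15).

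Of the 9 genes of complex III, 1 rose and 3 fell in GTEA1. UQCR11, a small subunit of the complex, was at 11.3, 10.8 and 10.7 CPM in DMSO and at 7.35, 6.23, 7.84 and 7.12 CPM in GTEA1. The groups were apart, and UQCR11 fell by 0.61 ± 0.10 on the log2 scale (adjusted p = 4.9e-07). UQCRFS1, the Rieske iron-sulphur protein, fell by 0.20 ± 0.05, from 56.6 to 62.8 CPM in DMSO to 49.4 to 56.4 CPM in GTEA1. UQCRB, a small subunit at the ubiquinone site, rose by 0.19 ± 0.04 (adjusted p = 3.8e-05), a call lost by library size alone.

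The fall of UQCR10 (-0.31 ± 0.13, adjusted p = 0.031) was lost under 7 alternatives. UQCRC1, a core subunit, and UQCRH, the hinge protein, were not called at 0.05 and 0.02, and both were called lower by library size alone, at -0.11 and -0.14. UQCRHL, a gene nearly identical to UQCRH in sequence, was at 8.78 to 11.8 CPM in DMSO, against 143 to 160 CPM for UQCRH, and was not called (-0.03 ± 0.12). Reads of such a pair may have been split or dropped in counting.

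Under TMM, complex IV had the smallest share of called genes in GTEA1: 3 of 12 tested rose and 1 fell, and 5 of its 17 genes had too few counts to be tested. COX7A2L, known as a factor that joins complexes III and IV into supercomplexes, was at 71.9, 76.7 and 71.5 CPM in DMSO, at 121, 119, 117 and 120 CPM in GTEA1 and at 71.8, 80.7, 83.1 and 80.2 CPM in GTEA7. GTEA1 stood above all other libraries with a spread of 2 CPM (SD), and the rise was 1.62-fold (0.70 ± 0.04, adjusted p = 6.0e-20). COX6C, a small membrane subunit, fell by 0.36 ± 0.05 (adjusted p = 1.8e-08), from 50.6 to 53.5 CPM in DMSO to 39.3 to 43 CPM in GTEA1. COX5A (0.19) and COX7A2 (0.14) rose, and both calls were lost by library size alone, where COX7A2 turned to -0.02. The call of COX7A2 was also lost without DMSO replicate 1 or 3 and without GTEA1 replicate 1 or 3.

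COX4I1, the regulatory subunit that binds ATP, hardly differed between groups. Its levels were 182, 214 and 200 CPM in DMSO, 202, 195, 207 and 192 CPM in GTEA1 and 195, 206, 201 and 191 CPM in GTEA7, and it was called in neither extract under TMM (-0.16 in GTEA1 by library size alone, called lower). COX5B (0.13 ± 0.07, adjusted p = 0.072), COX6A1 (0.11 ± 0.20), COX8A (0.13 ± 0.09), COX6B1 (0.01) and COX7B (0.03) were not called either. Scaled by library size alone, COX6B1 and COX7B were called lower, at -0.15 and -0.13. COX5B was called higher under 5 alternatives, among them no low-count filter and leaving out DMSO replicate 2, GTEA1 replicate 2 or GTEA1 replicate 4, and COX8A was called without GTEA1 replicate 2.

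Several complex IV genes have paralogs used in other tissues, and these were at or near 0 apart from COX6B2. The muscle form COX6A2 and the testis forms COX7B2 and COX8C had 0 counts in all 11 libraries, where a floor of 3 counts over all libraries is 0.017 CPM. COX4I2, the lung form known to respond to hypoxia, had 2 counts and COX7A1, the heart and muscle form, had 64. COX6B2, known from testis, had 383 counts, with 30.9% of its exon bases shared. It was at 1.31 to 2.75 CPM in DMSO and 1.99 to 3.14 CPM in GTEA1 and was called in neither extract against DMSO. It was called lower in GTEA7 than in GTEA1 (-0.51 ± 0.20, adjusted p = 0.022), a call lost under 6 alternatives. Of complex I, the hypoxia-linked NDUFA4L2 was at 0.645 to 0.964 CPM in DMSO and was not called in GTEA1 (0.47 ± 0.29, adjusted p = 0.14), whereas NDUFA4 rose by 1.36-fold (0.45 ± 0.05, adjusted p = 6.5e-12). NDUFA4 was at 52, 59.4 and 55.5 CPM in DMSO and at 79.1, 74.3, 76.2 and 74.6 CPM in GTEA1, with no overlap.

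The ATP synthase was the complex with the most falls for its size in GTEA1: 9 of its 18 tested genes fell and 3 rose. Of all genes tested, 36.2% fell and 35.6% rose. With DESeq2 size factors 8 genes of the complex fell. The enzyme's c-ring, the rotor that protons turn, is made of copies of a small protein encoded by 3 genes, ATP5MC1, ATP5MC2 and ATP5MC3. They are known to give the same mature protein with different import sequences. All 3 were called in GTEA1, in opposite directions.

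ATP5MC3 (ENSG00000154518) was at 132, 140 and 136 CPM in DMSO, at 71.8, 69.7, 70.7 and 64.8 CPM in GTEA1, and at 138, 151, 145 and 137 CPM in GTEA7. It fell to 0.508 of the DMSO level in GTEA1 (-0.98 ± 0.04, adjusted p = 1.7e-26), with all 4 libraries below all others. ATP5MC2 (ENSG00000135390), whose window above holds CGCATGCG, was at 47.4, 49.2 and 50.5 CPM in DMSO, at 83.9, 84.4, 86.6 and 81.7 CPM in GTEA1, and at 55.7, 51.9, 53 and 51.7 CPM in GTEA7. GTEA1 was above all other libraries, a rise of 1.72-fold (0.78 ± 0.04, adjusted p = 2.7e-21).

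ATP5MC1 (ENSG00000159199), whose window holds the E-box, was at 40.5, 44.2 and 42.3 CPM in DMSO, at 37.8, 36.6, 37.2 and 36.3 CPM in GTEA1, and at 48.9, 54.2, 56.7 and 50.4 CPM in GTEA7. The 3 groups did not overlap: it fell in GTEA1 (-0.20 ± 0.05, adjusted p = 0.0013) and rose in GTEA7 (0.31 ± 0.05, adjusted p = 6.0e-06). The summed CPM of the 3 genes was 228 ± 6.5 in DMSO, 190 ± 5.3 in GTEA1 and 248 ± 8.7 in GTEA7. Per length of the gene's exons, ATP5MC2 gave 25.3% ± 0.54 of the c-ring RNA in DMSO, 46.4% ± 0.53 in GTEA1 and 24.5% ± 1.4 in GTEA7, and ATP5MC3 gave 41.4% ± 0.26, 22.5% ± 0.51 and 38.6% ± 0.77. ATP5MC3 was thus the highest of the 3 per length in DMSO and ATP5MC2 the highest in GTEA1. With the length of the longest transcript in place of all exons, ATP5MC2 and ATP5MC3 were level in DMSO at 36.1% each, and ATP5MC2 remained the highest in GTEA1 at 59.2%.

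**Figure D2:**
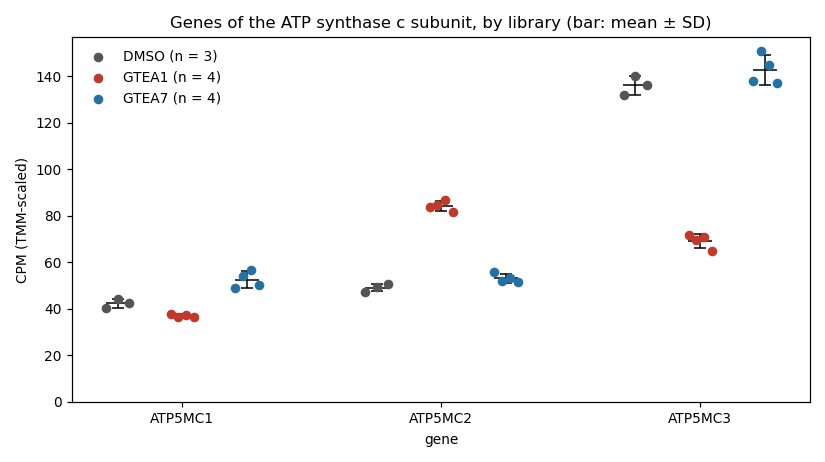
CPM (y axis) of the 3 genes for the c subunit of the ATP synthase in each library, by group (grey DMSO, red GTEA1, blue GTEA7), with the mean and SD as bars. ATP5MC3 in GTEA1 lies between 64.8 and 71.8 CPM, below every other library, and ATP5MC2 in GTEA1 lies between 81.7 and 86.6 CPM, above every other library.

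The peripheral stalk, which keeps the catalytic head from turning with the rotor, had 2 falls among 4 genes and 0 rises. ATP5PB was at 157, 171 and 167 CPM in DMSO, at 121, 117, 122 and 111 CPM in GTEA1, and at 185, 191, 192 and 178 CPM in GTEA7. The groups were in 3 separate ranges, and ATP5PB fell in GTEA1 by 0.49 ± 0.04 on the log2 scale (adjusted p = 8.3e-16). ATP5PF, whose window holds 3 of the motifs, fell by 0.51 ± 0.07 (adjusted p = 2.1e-08), from 25.5 to 30.5 CPM in DMSO to 17.4 to 20.7 CPM in GTEA1. Its annotation shares 23.1% of its exon bases, mostly with GABPA, the gene that starts beside it, and GABPA itself was not called (0.05 ± 0.05), except as lower by library size alone, at -0.11. ATP5PD (-0.05) and ATP5PO (0.14) were not called, ATP5PD except by library size alone.

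The catalytic head showed small falls. ATP5F1A, its alpha subunit, was at 465, 510 and 484 CPM in DMSO and at 433, 415, 427 and 412 CPM in GTEA1, without overlap (-0.21 ± 0.03, adjusted p = 7.7e-07). ATP5F1C, the gamma subunit, fell by 0.22 ± 0.04. ATP5F1B, the beta subunit with the catalytic sites, passed the threshold at -0.08 ± 0.04 (adjusted p = 0.04), but its groups overlapped and the call was lost under 8 alternatives. ATP5F1D and ATP5F1E were not called, both at -0.04, except by library size alone.

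Of the small membrane subunits, ATP5MF was at 11.5, 12.8 and 13.5 CPM in DMSO and at 9.34, 9.31, 9.48 and 6.86 CPM in GTEA1. All GTEA1 libraries were lower, and replicate 4 was lower than the rest (-0.53 ± 0.10, adjusted p = 5.3e-06). ATP5MG also fell (-0.42 ± 0.11), and ATP5MJ rose (0.23 ± 0.05), a call lost by library size alone. ATP5IF1, which blocks ATP hydrolysis by the enzyme, rose by 0.29 ± 0.08 (adjusted p = 0.0013), from 14.5 to 18.2 CPM in DMSO to 17.8 to 20.4 CPM in GTEA1. Its groups overlapped, and scaling by library size alone ended that call too.

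**Figure D3:**
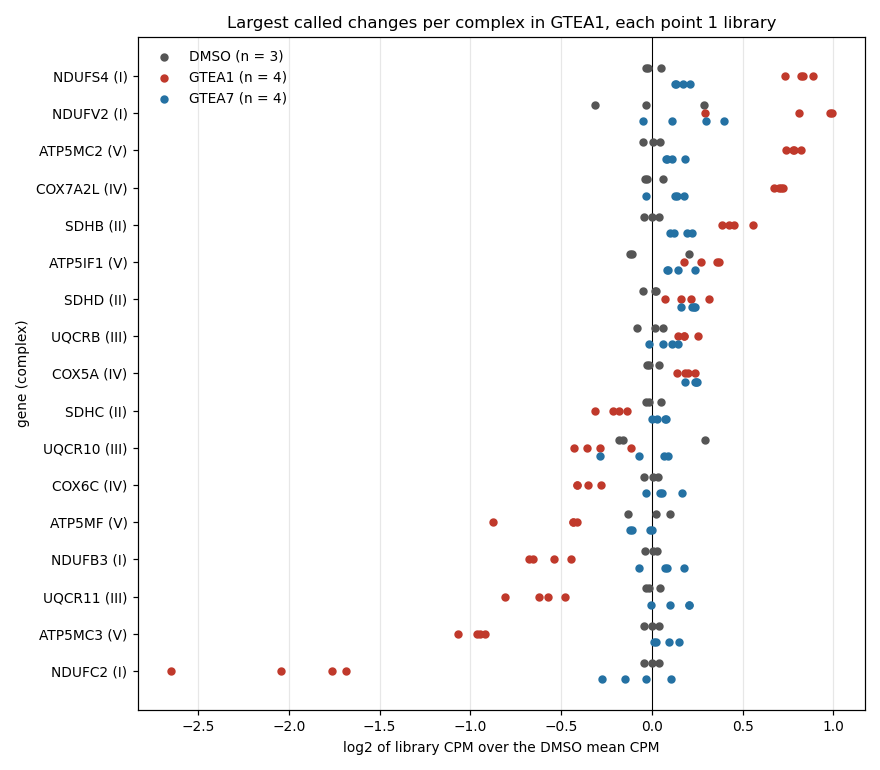
Log2 of each library's CPM over the DMSO mean (x axis) for the members with the largest called changes per complex in GTEA1 (y axis, complex in brackets); each point is 1 library, in grey for DMSO, red for GTEA1 and blue for GTEA7. The GTEA1 points of NDUFS4, ATP5MC2, COX7A2L and SDHB lie to the right of all other points, and those of NDUFC2, ATP5MC3, UQCR11, NDUFB3 and COX6C to the left.

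In summed CPM under TMM, complex V was lower in GTEA1 than in DMSO. Its members summed to 1840, 2000 and 1930 CPM in DMSO, to 1770, 1680, 1750 and 1640 CPM in GTEA1 and to 2040, 2140, 2150 and 2040 CPM in GTEA7, so the 3 groups did not overlap. A sum of CPM is weighted to the genes with the most counts, in complex V ATP5F1A and ATP5F1B (486 and 614 CPM in DMSO). The largest differences in CPM there between DMSO and GTEA1 were falls of ATP5MC3, ATP5F1A and ATP5PB and a rise of ATP5MC2. Complex II summed to 204 to 216 CPM in DMSO, 220 to 241 CPM in GTEA1 and 221 to 233 CPM in GTEA7. For complexes I, III and IV the groups overlapped, with means of 1300, 587 and 764 CPM in DMSO and 1340, 635 and 823 CPM in GTEA1. In complex III the largest difference in CPM was that of UQCRC2, which was not called and varied within each group. UQCRC2 was at 71.8 ± 20 CPM in DMSO and 108 ± 13 CPM in GTEA1. Scaled by library size alone, the sum of complex V was 2030 CPM in DMSO and 1620 CPM in GTEA1. The sums of the other complexes were then lower in GTEA1 as well. They were 1370 and 1260 CPM for complex I, 222 and 216 CPM for II, and 806 and 777 CPM for IV. Complex III summed to 600 CPM in GTEA1 and to more than that in DMSO.

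**Figure D4:**
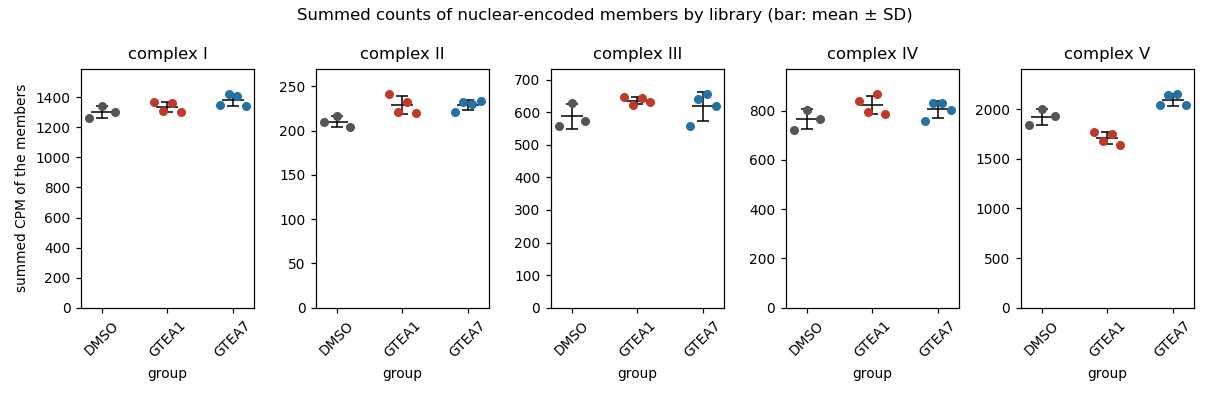
Summed CPM of the members of each complex (y axes, each from 0) in each library by group, with the mean and SD as bars. The 4 GTEA1 libraries of complex V lie between 1640 and 1770 CPM, below the 3 DMSO libraries, and the 4 GTEA7 libraries lie between 2040 and 2150 CPM, above them.

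In GTEA7 the called changes of members were small and nearly all upward. Of the 82 tested, 19 rose and 1 fell, which is 24.4% called against 22.5% of all genes tested (12% higher and 10.4% lower) and 28.9% of the 13190 genes at or above the 5th percentile of the members' mean CPM. The members' median log2 fold change was 0.08, against -0.009 for all genes tested, and the largest rise was 0.31. The groups did not overlap for 20 members, 19 of them higher, where 30.6% of all genes tested did not overlap (15.6% higher and 14.9% lower). The count of rises was 11 without DMSO replicate 1, 11 without GTEA7 replicate 2 and 10 by library size alone (3 in complex I, 1 in II, 0 in III, 1 in IV and 5 in V). Of the 20 calls, 10 were kept under every alternative run. Both extracts were set against the same 3 DMSO libraries, so their values are given side by side and not as independent results.

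In complex I 7 genes rose in GTEA7, among them NDUFB5 and NDUFA1. NDUFB5 was at 50.6, 49.9 and 47.2 CPM in DMSO and at 56.6, 62.6, 60.9 and 59.9 CPM in GTEA7, without overlap, a rise of 1.22-fold (0.28 ± 0.05, adjusted p = 1.2e-05). NDUFA1, a small subunit of the membrane arm, rose by 0.21 ± 0.06, a call lost without DMSO replicate 1 or without GTEA7 replicate 2, and 44.5% of its exon bases are shared with RNF113A and others. The rises of NDUFS1 (0.14), NDUFS4 (0.16), NDUFB9 (0.15) and NDUFAB1 (0.18) were lost by library size alone, and each also without 1 or more single libraries (DMSO replicate 1 for NDUFS4, NDUFB9 and NDUFAB1, DMSO replicate 3 and GTEA7 replicates 3 and 4 for NDUFS4, GTEA7 replicate 2 for NDUFS1 and NDUFB9). NDUFA4 (0.20) was called under every alternative run.

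The single fall was that of NDUFA13, a membrane arm subunit also known as GRIM-19. It was at 3.87, 4.04 and 4.75 CPM in DMSO, at 2.91, 2.79, 3.79 and 3.65 CPM in GTEA1, and at 3.51, 2.66, 2.24 and 1.51 CPM in GTEA7. All GTEA7 libraries were below all DMSO libraries and the GTEA7 libraries were spread, on 174 counts (-0.74 ± 0.17, adjusted p = 0.0012). In GTEA1 all libraries were below all DMSO libraries as well, and it was not called (-0.34 ± 0.17, adjusted p = 0.071) except by library size alone (-0.50), with only the compared groups and without GTEA1 replicate 3. It was called lower in GTEA7 than in GTEA1, a call lost under 7 alternatives, including leaving out GTEA1 replicate 3 or 4 or GTEA7 replicate 3 or 4. Of its exon bases, 21% are shared with another gene.

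Complex II had 2 rises in GTEA7. SDHD rose by 0.21 ± 0.05 (adjusted p = 5.5e-04), from 55.2 to 58 CPM in DMSO to 63.6 to 67.3 CPM, and SDHB by 0.16 ± 0.05, a call lost by library size alone, without DMSO replicate 3 and without GTEA7 replicate 2. Complex III had 0 calls among its 9 genes in GTEA7. Complex IV had 3 rises: COX5A (0.23 ± 0.04, adjusted p = 4.5e-05), COX6B1 (0.14) and COX7A2 (0.15), the last 2 lost under 6 alternatives each. Besides library size alone, both calls were lost without DMSO replicate 1 or 3 and without GTEA7 replicate 2 or 3, COX7A2 also without DMSO replicate 2 and COX6B1 also with limma-voom. COX5A, a subunit on the matrix side, was at 61.5, 60.9 and 63.9 CPM in DMSO and at 70.5, 73.1, 73.8 and 73.6 CPM in GTEA7, without overlap.

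In the ATP synthase 7 of 18 genes rose in GTEA7 and 0 fell. Besides ATP5MC1 these were ATP5MK (0.25 ± 0.06), known for holding ATP synthase dimers, ATP5MJ (0.22 ± 0.05), ATP5PB (0.18 ± 0.04), ATP5F1C (0.16 ± 0.04), ATP5PF (0.19 ± 0.07) and ATP5F1B (0.11 ± 0.04). The call of ATP5PF was lost under 7 alternatives (library size alone, the Wald test of DESeq2, and without DMSO replicate 1 or 3 or GTEA7 replicate 1, 2 or 3), and that of ATP5F1B under 4 (library size alone, and without DMSO replicate 1 or GTEA7 replicate 2 or 3). ATP5MC2 (0.11 ± 0.05, adjusted p = 0.066) and ATP5MC3 (0.07 ± 0.04, adjusted p = 0.23) were not called, but ATP5MC2 was called higher under 4 alternatives, among them DESeq2 size factors, only the compared groups and leaving out GTEA7 replicate 4. ATP5MC2 stood higher in all GTEA7 libraries than in all DMSO libraries, and the groups of ATP5MC3 overlapped.

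Set directly against each other, GTEA7 was higher than GTEA1 for 32 members and lower for 16, which is 58.5% called against 72.7% of all genes tested (36.2% higher and 36.4% lower). The libraries did not overlap for 40 members, against 65.3% of all genes. The median log2 fold change of the members was 0.08, against 0.000 for all genes tested. Scaled by library size alone, 48 members were higher and 10 lower, with a median of 0.19 against 0.109 for all genes, and by complex 19 were higher and 7 lower (I), 2 and 1 (II), 7 and 0 (III), 7 and 1 (IV), and 13 and 1 (V). Under TMM these were 15 and 11, 1 and 1, 3 and 1, 2 and 2, and 11 and 1. In complex V 11 genes were higher in GTEA7 and ATP5MC2 alone was lower (-0.66 ± 0.04, adjusted p = 2.7e-20). The largest differences there were ATP5MC3 (1.04 ± 0.04, adjusted p = 5.5e-29), ATP5PF (0.70 ± 0.07), ATP5PB (0.66 ± 0.04) and ATP5MG (0.62 ± 0.10).

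For the other complexes the largest called differences between the extracts in each direction were as follows. NDUFC2 was higher in GTEA7 by 1.91 ± 0.15 on the log2 scale (adjusted p = 3.9e-16), and NDUFS8 was lower, with a log2 fold change of -0.70 ± 0.06 (adjusted p = 5.2e-14). In complex II, SDHC was higher (0.25 ± 0.04) and SDHB lower (-0.30 ± 0.04). UQCR11 was higher in GTEA7 (0.74 ± 0.09), and so was COX6C (0.42 ± 0.05). COX7A2L was lower (-0.59 ± 0.04, adjusted p = 7.5e-19). UQCRB was lower by a log2 fold change of -0.11 ± 0.04, a call lost by library size alone and without GTEA7 replicate 1.

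Genes outside the set were followed through lists of the same pathway. Their counts can be set beside all genes tested, of which 35.6% were called higher and 36.2% lower in GTEA1. In GTEA7 these shares were 12% and 10.4%. Cytochrome c1 of complex III is encoded by CYC1, which rose in GTEA1 (0.17 ± 0.04) and in GTEA7 (0.12 ± 0.04), both calls lost by library size alone. The electron carrier cytochrome c is encoded by CYCS, which fell in GTEA1 (-0.26 ± 0.04, adjusted p = 5.0e-09) and rose in GTEA7 (0.29 ± 0.03, adjusted p = 3.8e-09). CYCS was at 271 CPM in DMSO, 226 CPM in GTEA1 and 332 CPM in GTEA7.

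The 13 subunits encoded in mitochondrial DNA are the partners of the nuclear ones in complexes I, III, IV and V. In GTEA1 9 of them fell and 2 rose, with a median log2 fold change of -0.76. MT-CYB, the cytochrome b of complex III, fell from 6580 CPM to 3210 CPM (-1.04 ± 0.04, adjusted p = 1.5e-25), and MT-CO3 of complex IV fell by 0.76 ± 0.04. MT-CO1, which holds the oxygen site, rose (0.28 ± 0.04), as did MT-ND4 (0.20 ± 0.05), a call lost by library size alone. These 2 held the most counts of the 13. The sum of the 13 went from 111000 ± 8600 CPM to 100000 ± 3800 CPM, and the groups overlapped, with DMSO replicate 2 at 101000 CPM. In GTEA7 2 rose and 1 fell (MT-CYB, -0.22 ± 0.04), with a median of 0.07. By library size alone 1 rose and 9 fell in GTEA1, and 1 rose and 1 fell in GTEA7.

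Assembly factors help to put the subunits together, and their lists also held genes of other roles such as TTC19 and LRPPRC. In GTEA1 the assembly factors were split. Those of complex I had 5 rises and 5 falls among 18, led by NDUFAF2 (0.85 ± 0.09) and NDUFAF5 (0.65 ± 0.07) on the rising side and COA1 (-0.37 ± 0.05) and ACAD9 (-0.40 ± 0.06) on the falling side. For complex II, SDHAF4 was the single call among 4 (0.53 ± 0.11). Complex III had 5 rises and 3 falls among 9, with TTC19, which clears fragments of the Rieske protein, going from 102 to 228 CPM (1.16 ± 0.04, adjusted p = 3.2e-32) and UQCC1 rising by 0.70 ± 0.05. LYRM7, which stabilises the Rieske protein before its insertion, fell by 0.63 ± 0.06, and BCS1L, which inserts it, fell by 0.31 ± 0.07.

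Complex IV factors had 5 rises and 8 falls among 23 tested. COX15 of haem a synthesis fell (-0.61 ± 0.04), as did LRPPRC, which binds mitochondrial messenger RNA (-0.33 ± 0.03), while COX10 of the same haem pathway rose (0.48 ± 0.06), as did COA4 (0.30 ± 0.06). The 2 called factors of complex V, ATPAF1 (-0.52 ± 0.05) and TMEM70 (-0.65 ± 0.06), both fell, of 4 tested. TMEM70 is known for its part in forming the c-ring. In GTEA7 the assembly factors of complexes I, III and IV had 6, 2 and 5 rises, and the 1 fall was that of COX15 (-0.13 ± 0.04). By library size alone these rises were 2, 1 and 2, and in GTEA1 the complex I factors had 2 rises and 10 falls and those of complex IV 3 and 12.

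Among the enzymes that feed the chain, more were called lower than higher in GTEA1. Of 16 genes of the tricarboxylic acid cycle and pyruvate dehydrogenase, 9 fell and 3 rose. That is 75% called, against 71.8% of all genes tested. OGDH rose from 67.6 to 136 CPM (1.01 ± 0.04, adjusted p = 1.7e-26), while FH fell by 0.51 ± 0.05 and PDHB by 0.65 ± 0.07. Among 14 tested genes of the outer membrane and the import machinery, 5 rose and 5 fell, with VDAC3 (-0.69 ± 0.04) and TOMM40 (-0.68 ± 0.05) lower and VDAC2 (0.51 ± 0.04) and TIMM44 (0.58 ± 0.05) higher. In GTEA7 these lists had 7 and 8 rises and 0 falls. By library size alone the cycle had 2 rises and 13 falls and the import list 5 and 9 in GTEA1, and 4 and 7 rises in GTEA7.

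The list of regulators of nuclear respiratory genes also held genes that act on mitochondrial DNA, such as TFAM and POLRMT. Of its 15 tested genes, 6 rose and 5 fell in GTEA1 (73.3% called). TFAM, which packages mitochondrial DNA and starts its transcription, fell from 80.7 to 46.2 CPM (-0.81 ± 0.05, adjusted p = 7.8e-21), and YY1 fell by 0.26 ± 0.04. POLRMT, the mitochondrial RNA polymerase, rose by 0.60 ± 0.05 and HIF1A by 0.56 ± 0.04. NRF1 (0.15 ± 0.07, adjusted p = 0.052) and GABPA were not called, and PPARGC1A was at 0.018 CPM in DMSO and was not tested. In GTEA7 6 rose and 0 fell, HIF1A by the most (0.44 ± 0.04). By library size alone 4 rose and 7 fell in GTEA1, and 3 rose and 1 fell in GTEA7.

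**Figure D5:**
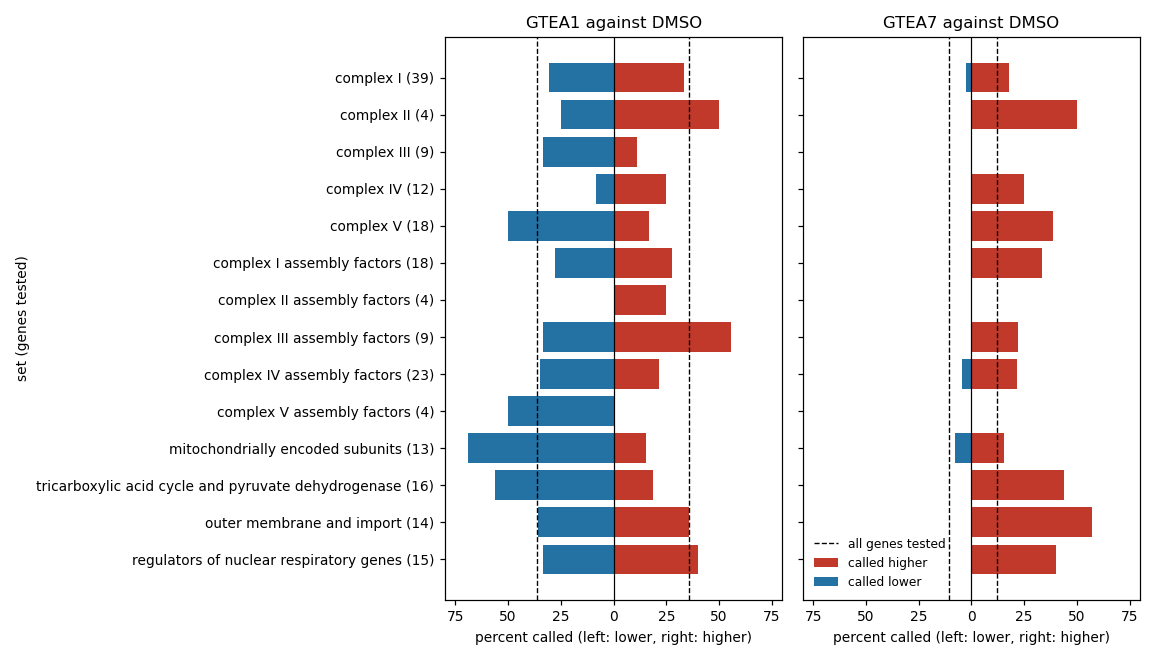
Percent of the tested genes of each complex and pathway list called higher (red, to the right) and lower (blue, to the left) for GTEA1 and GTEA7 against DMSO, with the number tested in brackets and the share of all genes tested as dashed lines. In GTEA1 bars extend to both sides for most sets, with 9 of 13 mitochondrially encoded and 9 of 18 complex V genes lower, while in GTEA7 nearly all bars lie to the right.

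Counting limits touch some members. Of the 90, 48 share some exon bases with another gene of the annotation and 35 share 10% or more. Besides the members, 180 rows carry the same symbol prefixes, 174 of them pseudogenes, of which 77 had 0 counts. All 180 rows held 0.383% of the counts of members and these rows together, and how reads that match a gene and its pseudogenes were counted is not stated in the labels. The 8 members not tested were NDUFC2-KCTD14, COX4I2, COX6A2, COX7A1, COX7B2, COX8C, ATP5MF-PTCD1 and ATP5MGL, with 64 counts or fewer each.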

How the data were processed

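Polyadenylated RNA of 11 libraries was analysed, 3 with DMSO, 4 with GTEA1 and 4 with GTEA7, all of batch 1 per the labels. Whole-number read counts per gene, not normalized, make up the deposited table, and each of its 11 columns was used. Per the submitters' processing notes, the tools were DESeq (1.10.1), HTSeq (0.5.4), GATK, SAMtools (0.1.18), Picard and STAR, with no roles given. Genome build, annotation, strand setting and counting options were not given in the sources used here. Symbols were looked up by Ensembl ID, and biotypes, lengths and shared exon bases from GENCODE release 29.

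Genes were filtered with filterByExpr, scaled by TMM and fitted in 1 model of all libraries with edgeR 4.0.16 (R 4.3.3, robust quasi-likelihood F test). Adjustment ran over all genes tested. Each SE is the absolute log2 fold change over the square root of F. Precision depends on the total counts, given above as a range over the 11 libraries, and floors cover counting error only. The method was checked on simulated data. Levels per length (TPM) divide by the bases of all exons of a gene.

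The alternatives were DESeq2 size factors, library size only, no low-count filter, at least 1 CPM in 3 libraries, the replicate number as a block, only the compared groups, limma-voom (limma 3.58.1), the Wald test of DESeq2 1.42.0, the longest transcript as length, and each library left out.

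The members and the pathway lists were chosen with earlier results of these data known. Members named are core subunits and paralog sets whatever their values, per complex the 2 largest called rises and falls against DMSO and the largest between extracts at a mean of at least 1 CPM, and members of counts of 5 or fewer. Of the lists, up to 2 genes per direction with the smallest adjusted p in GTEA1 are named. Further members and genes of the lists, and the promoters printed, were chosen after their values were seen. The 2 read-through genes match the rule and were not tested. The values of 1 member and of 1 gene of a list that the rule names are not reported here.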

Additional observations from a re-analysis of the deposited data

Results flagged for a closer look

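ATP5MF, the f subunit of the ATP synthase membrane part, had 1 GTEA1 library apart from the other 3. Replicate 4 stood at 6.86 CPM, against 9.31, 9.34 and 9.48 CPM. Its gap to the nearest library exceeded Dixon's 95% critical share of the group's range. This was 1 of 96 groups of 4 examined, and chance alone singles out about 1 in 20 such groups. The fall of ATP5MF in GTEA1 was called under every alternative run, including that without this library.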

How the results depend on the processing

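Scaling by library size alone moved the most values and shifted the median over all genes (log2) to -0.167 in GTEA1 against DMSO, -0.060 in GTEA7 against DMSO and 0.109 in GTEA7 against GTEA1. Under it 11 members were called higher and 44 lower in GTEA1 (median -0.17), 10 were called higher in GTEA7, and 10 were called lower in GTEA7 against GTEA1 (median 0.19). For all genes in GTEA7 against DMSO the counts became 1255 higher and 2954 lower, from 2159 and 1877. Log2 fold changes in GTEA1 against DMSO turned to -0.12 for NDUFS1, -0.11 for UQCRC1, -0.15 for COX6B1, -0.02 for COX7A2, -0.13 for COX7B and -0.14 for UQCRH. In GTEA7 against GTEA1 they turned to 0.09 for UQCRC1 and 0.10 for COX4I1. Summed CPM in DMSO became 1370 (complex I), 222 (II), 806 (IV) and 2030 (V), and in GTEA1 1260 (I), 216 (II), 600 (III), 777 (IV) and 1620 (V). For complex III as well, the sum under this scaling was higher in DMSO than in GTEA1. With the longest transcript as length, the shares of c-ring RNA in DMSO, GTEA1 and GTEA7 were 27.8%, 23.2% and 31% for ATP5MC1, 36.1%, 59.2% and 35.1% for ATP5MC2, and 36.1%, 17.6% and 33.9% for ATP5MC3. Leaving out each library in turn gave 11 to 23 members called higher in GTEA7, the lowest without DMSO replicate 1 and without GTEA7 replicate 2. In the other settings the counts of members called stayed within 1.5 times the reported ones. Calls kept under every setting were 33 of 48, 10 of 20 and 38 of 48 in the 3 comparisons.

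Deviations from the group means correlated at -0.055 to 0.026 for same-numbered libraries and at -0.041 to 0.043 for libraries of different numbers. The replicate numbers were not taken as pairs. A correlation over all genes tested could miss a small effect shared by same-numbered libraries. With the replicate number as a block, 22 members were called higher and 25 lower in GTEA1, 21 higher and 1 lower in GTEA7, and 32 higher and 16 lower in GTEA7 against GTEA1. The block was among the alternatives that called COX5B in GTEA1 and ATP5MC2 in GTEA7, and among those that lost NDUFB8 and ATP5F1B in GTEA1. Depth limits the members with few counts, such as NDUFA7 (136 counts) and NDUFA4L2 (165 counts).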

Other observations

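UQCRC2, a core subunit of complex III, was singled out after its values were seen, because it varied within every group. It was at 72.8, 90.8 and 51.8 CPM in DMSO, at 110, 98.4, 97.8 and 126 CPM in GTEA1 and at 43.6, 76.4, 103 and 90 CPM in GTEA7. All GTEA1 libraries were above all DMSO libraries, yet edgeR did not call it (0.57 ± 0.29, adjusted p = 0.10), while limma-voom did. No exon bases of UQCRC2 are shared with another gene of the annotation.

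Some subunits that each complex needs had few counts. Per length of its exons, SDHA was at 1.40 TPM in DMSO, against 78.9 TPM for SDHB. NDUFS7 was at 0.827 TPM, and ATP5ME, which shares 61.6% of its exon bases with other genes such as MYL5, was at 6.13 TPM, against 853 TPM for ATP5F1B. The part of counting choices in these levels was not tested.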
